A study of Mus musculus with 2 samples.

Results

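The circadian clock genes measured here were Arntl, Clock, Per1, Per2, Per3, Nr1d1, Nr1d2, Dbp, Tef and Hlf. They were chosen by name, as all probe sets whose only gene symbol in the platform annotation is 1 of these 10, which gave 26 of the 45101 probe sets of an Affymetrix mouse expression array. Counted as genes they were 10 of 18193. The study measured total RNA of whole heads, taken from newborn mice, on 1 array for each of 2 genotypes, both born to carriers of T(2:9)11H, a translocation that exchanges the distal parts of Chr 2 and Chr 9. The head called MatDp(dist2), equally PatDp(dist9), carried both copies of distal Chr 2 from the mother and both copies of distal Chr 9 from the father, and the head called PatDp(dist2), equally MatDp(dist9), carried them the other way round. Each duplication of Chr 2 is therefore tied to the opposite duplication of Chr 9, and a head mixes many cell types. The labels name neither the number of animals behind a head, nor their sex, nor the time of day or hours after birth at which they were taken. Both heads are called MatDp(dist2) and PatDp(dist2) from here on. None of the 10 genes lies on Chr 2 or Chr 9, so they lie outside the duplicated parts.

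The clock is a feedback loop that runs in nearly every cell. The proteins of Arntl (also called Bmal1) and Clock pair up and switch on genes with E-box motifs, among them the Per and Cry repressors, which then shut the pair off. A side loop of REV-ERB repressors (Nr1d1, Nr1d2) and ROR activators sets the rhythm of Arntl through elements with the core AGGTCA, and the PAR bZIP factors Dbp, Tef and Hlf pass the rhythm on through D-box motifs. In adult tissues Arntl peaks when Nr1d1, Dbp and the Per genes are low, so the balance between these arms is commonly used to read the clock's phase.

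Between the heads, Nr1d2, Per3, Per2 and Dbp had signals at least 1.5-fold lower in MatDp(dist2), on the brightest probe set of each gene, while Per1, Hlf, Tef and both activators lay closer together. Nr1d2, at 2.10-fold, was the only member past a 2-fold difference with the values as deposited, and 0 members were past it in the other direction. Of the 11270 genes with signals above the floor on both arrays, 3.52% passed that limit towards PatDp(dist2) and 3.73% towards MatDp(dist2), and 1 of 9 measured members is too few to read against this. At a 1.5-fold limit 4 of 9 members were higher in PatDp(dist2), against 11.2% of all genes, or 3 of 9 with the other probe set of Dbp, and 0 of 9 were higher in MatDp(dist2), against 10.9%. Per2 too passed this limit only on its brightest probe set, and its other probe set above the floor was 1.16-fold higher in PatDp(dist2). The count at 1.5-fold therefore depends on the probe sets chosen. The spread between animals is unknown with 1 array per genotype, and no test was possible. The values are MAS5 signals, a linear intensity per probe set, and a signal below 187 (the floor, midway between the medians of the arrays) is treated as not measured.

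The heads also differed in their tissue markers. Lens markers, 8 crystallins and other lens genes, had a summed signal of 32200 for MatDp(dist2) and 361 for PatDp(dist2), where all 8 lay below the floor although the label says whole head. Epidermis markers were higher in MatDp(dist2) on 10 of 10 genes (summed signals 57334 and 8001), neuron markers on 10 of 12 (38470 and 21528) and cartilage markers on 8 of 8 (8108 and 4421). Fat markers were higher in PatDp(dist2) on 9 of 9 measured genes (30641 and 77593) and skeletal muscle markers on 12 of 12 (113173 and 157825). In these counts 2 epidermis, 3 cartilage and 1 fat gene, like all 8 lens genes, passed the floor on 1 array alone. The floor fixed their direction, so they add nothing to the counts. Of all genes measured on both arrays, 49.9% had a lower signal in MatDp(dist2). In bulk RNA, fewer cells of a type and less RNA per cell cannot be told apart, and the part of these tissues in the clock values below was not tested.

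Promoter sequences are given for Per3, Nr1d2, Per1, Tef and Hlf, whose windows held a motif searched for, so that the motifs can be seen beside the values. The windows came from RefSeq on GRCm38.p6, reach from 250 bases before to 50 bases after a gene's start, and were present for all members except Per2, 14 windows in all. Searched on both strands were the E-box CACGTG, the D-box as TTATGTAA or TTACGTAA, the core AGGTCA, and the cAMP response element TGACGTCA. Per3 held 2 D-boxes, and a D-box was found in 1.06% of all 32851 windows. Nr1d2 held 1 AGGTCA, which 16.3% of windows held. The upstream 250 bases of both genes are printed because these 2 genes had the largest differences of the measured members, with the motif in capitals, 5′ to 3′ on the strand of the gene, from chr4:151044666-151044915 (minus strand) for Per3 and chr14:18239107-18239356 (minus strand) for Nr1d2.
Per3: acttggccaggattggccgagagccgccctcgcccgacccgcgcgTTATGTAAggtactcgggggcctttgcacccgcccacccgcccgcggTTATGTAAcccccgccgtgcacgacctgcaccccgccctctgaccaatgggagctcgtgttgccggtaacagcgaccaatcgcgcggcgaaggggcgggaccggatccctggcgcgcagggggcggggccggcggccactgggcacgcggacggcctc
Nr1d2: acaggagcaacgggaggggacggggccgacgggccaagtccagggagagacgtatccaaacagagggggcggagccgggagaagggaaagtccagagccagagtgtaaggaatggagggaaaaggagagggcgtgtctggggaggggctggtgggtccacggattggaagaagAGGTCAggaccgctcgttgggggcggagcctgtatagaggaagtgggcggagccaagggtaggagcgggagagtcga

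E-boxes stood in the windows of Per1 and Tef, and in 7.15% of all windows. The D-boxes of Per3 began 205 and 158 bases before its start, and the E-box of Per1 began 166 bases before. Tef held an E-box in each of its 2 windows, which belong to alternative starts. Hlf held a cAMP response element that began 9 bases before its start, and 1.79% of windows held this element at any position. These stretches show the motif in capitals within its surroundings, from chr11:69098743-69098828 (plus strand) for Per1, chr15:81802506-81802591 and chr15:81811236-81811321 (plus strand) for Tef, and chr11:90390918-90390966 (minus strand) for Hlf.
Per1: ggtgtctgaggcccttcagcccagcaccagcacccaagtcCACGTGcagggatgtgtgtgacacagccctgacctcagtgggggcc
Tef, upstream start: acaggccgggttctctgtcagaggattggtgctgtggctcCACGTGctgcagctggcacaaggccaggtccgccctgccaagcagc
Tef, downstream start: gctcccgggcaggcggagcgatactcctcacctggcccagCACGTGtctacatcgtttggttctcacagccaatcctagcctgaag
Hlf: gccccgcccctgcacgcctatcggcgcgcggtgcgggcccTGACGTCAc

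The core AGGTCA was also found in windows of Arntl and Clock, which are not printed, and of Per1, where it is left in lower case above. Only in Arntl, where it began at base 32 counted from the start, did at least 4 of the 5 bases before it consist of A or T, the setting in which REV-ERB and ROR proteins prefer it, and 2.66% of all windows held such a match. The windows of Dbp and Nr1d1 held none of the motifs searched. No 2 different motifs overlapped in a member's window. A match is only a run of letters in this window and was not set against binding.

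**Figure D1:**
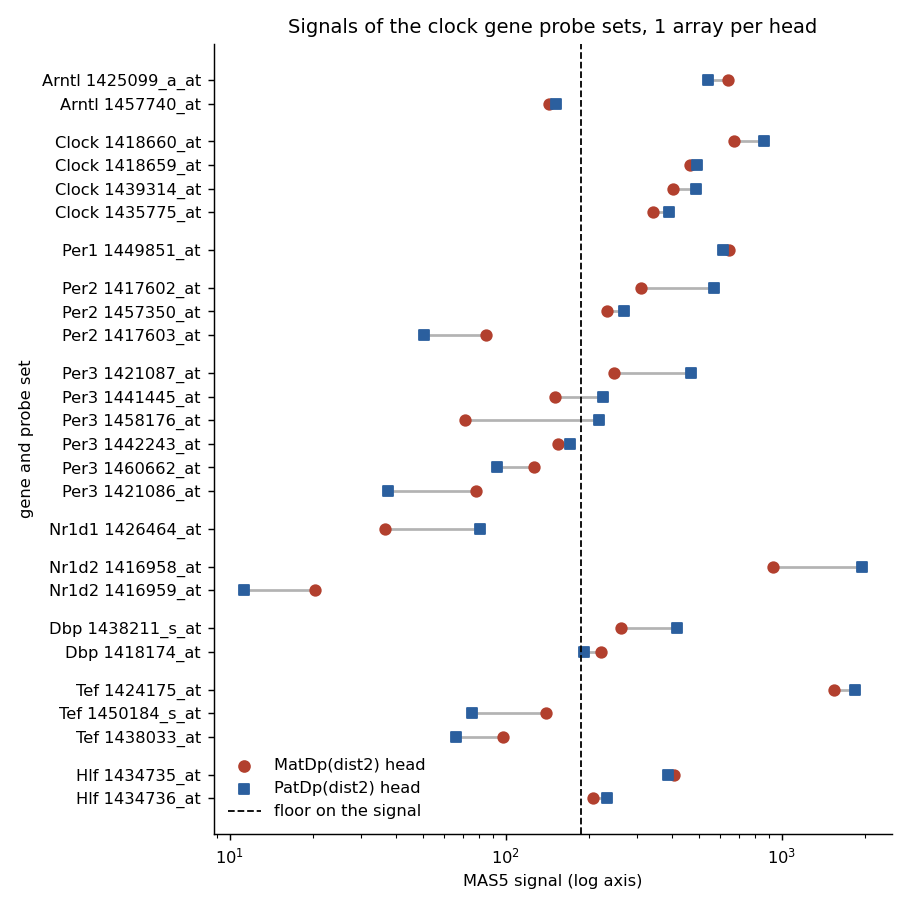
MAS5 signal on a log axis of each of the 26 clock gene probe sets for MatDp(dist2) (circles) and PatDp(dist2) (squares), 1 array each, joined by a line. The dashed line is the floor at 187, with 15 probe sets at or above it on both arrays, 2 on 1 array and 9 on neither. The wide gaps to the right of the floor are those of Nr1d2, Per3, Per2 and Dbp.

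Of the activators, Arntl had a signal of 637 for MatDp(dist2) and 542.5 for PatDp(dist2) on probe set 1425099_a_at, 1.17-fold higher in MatDp(dist2). Its other probe set, 1457740_at, was below the floor in both heads at 143 and 152. Clock, the partner of Arntl and itself a histone acetyltransferase, leaned the other way on all 4 of its probe sets. Probe set 1418660_at of Clock gave 671 for MatDp(dist2) and 866 for PatDp(dist2), 1.29-fold apart. The remaining Clock probe sets gave 467 and 495, 403 and 487.5, and 342 and 392. All 4 put the PatDp(dist2) head higher by 1.06-fold to 1.29-fold. Arntl and Clock thus lay on opposite sides of equality, with log2 ratios of MatDp(dist2) over PatDp(dist2) of 0.23 and -0.37, and their median was -0.07.

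The Per genes, whose proteins carry the Cry repressors into the nucleus, gave unlike values. Per1 had signals of 644 for MatDp(dist2) and 614 for PatDp(dist2) on its only probe set, a log2 ratio of 0.07. Per2 had 309 and 567 on 1417602_at, 1.83-fold higher in PatDp(dist2). A second Per2 probe set above the floor, 1457350_at, gave 232 and 268, or 1.16-fold in the same direction. The size of the Per2 difference therefore depended on the probe set, although its direction was shared by both. The last Per2 probe set was below the floor in both heads, at 84.5 and 50.5.

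Per3, whose promoter with D-boxes is printed above, had signals of 247 for MatDp(dist2) and 471 for PatDp(dist2) on 1421087_at, 1.90-fold apart. On 1441445_at Per3 gave 151.5 and 224, and on 1458176_at 71.4 and 217, so with the MatDp(dist2) signal below the floor these are at least 1.20-fold and at least 1.16-fold higher in PatDp(dist2). The 3 remaining Per3 probe sets were below the floor in both heads. They read 78.2 and 37.6, 126.7 and 92.9, and 154.6 and 171.7, for MatDp(dist2) and PatDp(dist2). Only 1421087_at was thus measured on both arrays. Because 1441445_at and 1458176_at passed the floor through PatDp(dist2) alone, their direction was fixed by the floor and adds nothing to that of 1421087_at. Per1, which is also known as an acute target of CREB and of the glucocorticoid receptor, stood apart from Per2 and Per3 in these values, a difference between genes that was not tested.

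Nr1d2 encodes REV-ERB beta, a nuclear receptor that represses Arntl and responds to heme. Its promoter window is printed above with the core AGGTCA. Nr1d2 had signals of 928 for MatDp(dist2) and 1948.5 for PatDp(dist2) on 1416958_at, a log2 ratio of -1.07. Of all genes measured on both arrays, 338 had a ratio at least as low, and 695 (6.17%) lay at least as far from equality in either direction. The other Nr1d2 probe set, 1416959_at, read only 20.4 and 11.3. Nr1d1, which encodes REV-ERB alpha, is strongly rhythmic in many adult tissues. Its only probe set, 1426464_at, lay below the floor with 36.6 and 80.7. No fold is given for Nr1d1.

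Dbp, Tef and Hlf encode related activators of D-box genes, whose targets include detoxification enzymes. Dbp gave opposite directions on its 2 probe sets. On 1438211_s_at Dbp had signals of 261 for MatDp(dist2) and 416 for PatDp(dist2), 1.59-fold higher in the latter, and on 1418174_at it had 222 and 192, 1.16-fold higher in the former. The gap between these log2 ratios was 0.88, against a median gap of 0.25 over the 4369 genes with at least 2 probe sets measured on both arrays. Only 3.98% of those genes had 2 probe sets as far apart, so the direction of Dbp is not settled by these arrays. An identifier with _s marks a probe set whose probes can match more than 1 transcript.

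Tef had signals of 1549.9 for MatDp(dist2) and 1844 for PatDp(dist2) on 1424175_at, 1.19-fold apart, while its other probe sets were below the floor with signals between 66.2 and 140.3. Hlf, known also as a partner in leukaemia fusion genes, gave 409 and 386 on 1434735_at and 207 and 233 on 1434736_at. Its log2 ratios of 0.08 and -0.17 lay on either side of equality. The 3 PAR bZIP genes therefore included no gene at a 2-fold difference, and only Dbp passed 1.5-fold, on 1 of its probe sets.

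Set side by side by arm, the 7 measured repressor and output genes (Per1, Per2, Per3, Nr1d2, Dbp, Tef and Hlf) had a median log2 ratio of -0.67, and the 2 activators one of -0.07. All genes measured on both arrays had a median of 0.00 and a robust SD of 0.42. Of the 7 genes, 5 had a lower signal in MatDp(dist2) and 2, Per1 and Hlf, a higher one, or 4 and 3 with the other probe set of Dbp, while 49.9% of all genes had a lower signal there. All 7 lay below Arntl, but only 4 lay below Clock. The difference between the arm medians, -0.60, depended on Dbp, the middle gene of the 7. With probe sets of the plain _at kind alone Dbp took its other value, Arntl had none above the floor, and the arm difference became 0.12. The repressor and output median was -0.25 in that setting. Averaging over probe sets, or raising the floor to the 70th percentile, also gave -0.25, with arm differences of -0.25 and -0.18. The arms were named with earlier results of these arrays known, and the genes of an arm are not replicates.

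**Figure D2:**
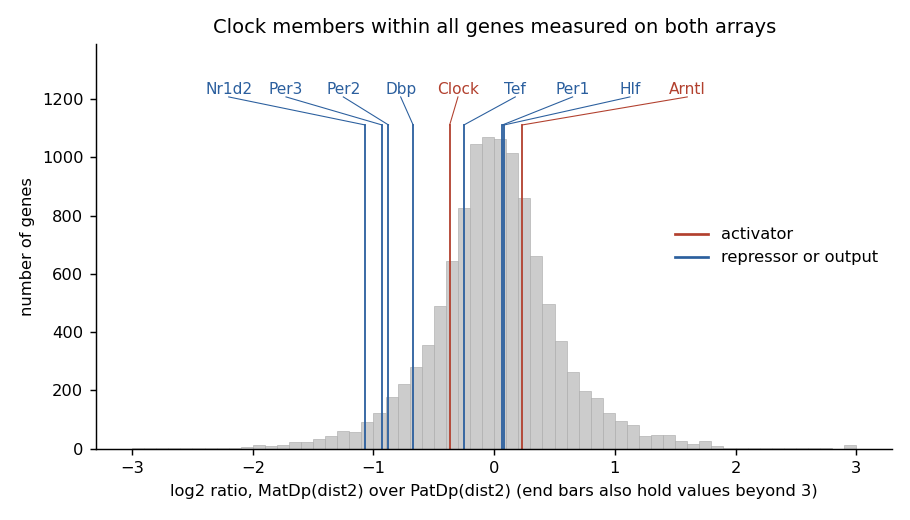
Histogram of the log2 ratio of MatDp(dist2) over PatDp(dist2) for the 11270 genes measured on both arrays, in bars of 0.1, with the 9 measured clock members marked by lines (red for activators, blue for repressor and output genes). Nr1d2, Per3, Per2 and Dbp sit on the left shoulder between -1.07 and -0.67, inside the spread of all genes, and the other members lie between -0.37 and 0.23.

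The size of these differences can be read against all genes. A ratio as low as that of Per3 was found for 4.31% of genes measured on both arrays, as low as that of Per2 for 4.92%, and as low as that of Dbp for 8.82%. Clock lay within the lowest 19.8% and Tef within the lowest 27.4%. For Arntl, 29.0% of genes had a ratio at least as high, and for Hlf and Per1 these shares were 42.1% and 43.5%. Probe sets of 1 gene also disagree with each other on these arrays. Of the members with several probe sets above the floor, the 2 brightest of Clock differed by 0.28 in log2 ratio, those of Hlf by 0.26 and those of Per2 by 0.67, near the 90th percentile of 0.67 over all such genes.

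Other genes of the loop, from lists written for the pathway, gave the following values. Npas2, which can replace Clock in the forebrain, had signals of 255 for MatDp(dist2) and 132.5 for PatDp(dist2), at least 1.36-fold higher in the former, and Arntl2 was below the floor. Cry1, a repressor that peaks later than the Per genes, had 523 and 370.5, 1.41-fold higher in MatDp(dist2). Cry2, a Chr 2 gene, lay closer to equality with 622 and 643. Bhlhe40, which competes for E-boxes, had 689 and 1165 and so stood with Per2 and Per3 at 1.69-fold higher in PatDp(dist2). Ciart and Bhlhe41, repressors that follow the same E-box rhythm, were below the floor in both heads.

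Nfil3, the repressor that opposes Dbp, Tef and Hlf at D-boxes, had signals of 185 for MatDp(dist2), just under the floor, and 440.2 for PatDp(dist2), at least 2.35-fold higher in the latter. Nfil3 peaks with Arntl in adult tissues, so its values ran opposite to those of Arntl, Npas2 and Cry1 here. Rora, the activator that competes with the REV-ERB proteins, lies on Chr 9, whose distal part had different parental origins in the heads. Rora had signals of 866 and 736 on 1424034_at, and its 5 probe sets measured on both arrays all read higher in MatDp(dist2), by 1.07-fold to 1.33-fold. Rorb, a brain and retina relative of Rora, had 273 and 125, at least 1.46-fold higher in MatDp(dist2). Over the 4 pathway lists, members included, 16 of 21 listed genes were measured, 0 were at least 2-fold higher in MatDp(dist2) (background 4.43%) and 2, Nr1d2 and Nfil3, were at least 2-fold higher in PatDp(dist2) (background 3.47%), bounds included. Their median log2 ratio was -0.15.

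**Figure D3:**
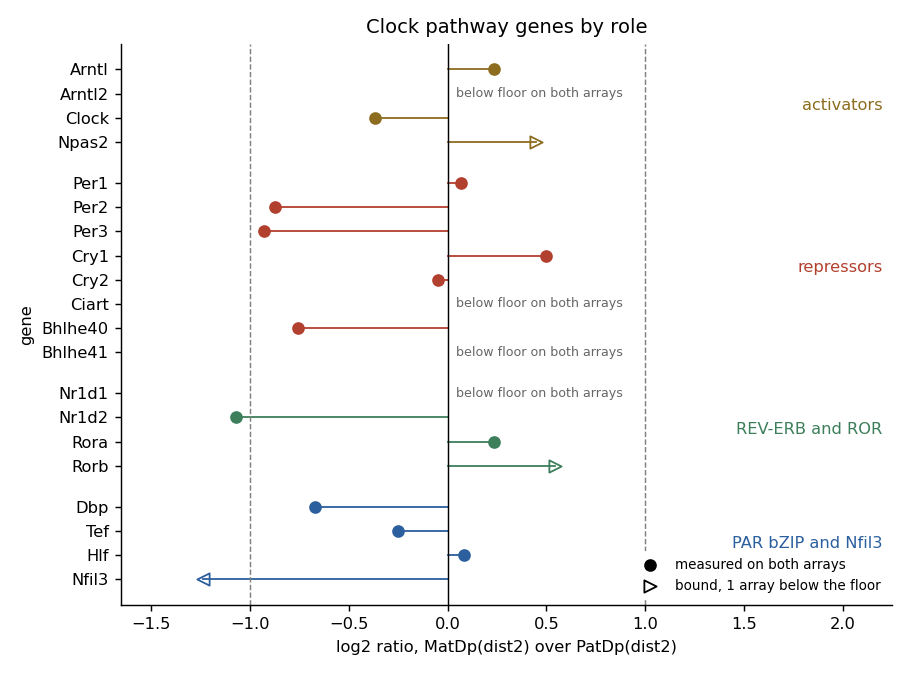
Log2 ratio of MatDp(dist2) over PatDp(dist2) for the 16 of 20 clock pathway genes on the arrays that had a ratio or a bound, grouped by role, with filled circles for genes measured on both arrays and open triangles for bounds where 1 array lay below the floor. The other 4 are marked as below the floor, and dashed lines mark a 2-fold difference. Nr1d2 and the bound of Nfil3 pass the left line, and no gene reaches the right line.

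Grouped by the phase at which they peak in adult tissues, the 7 measured genes of the E-box and D-box phase were the repressor and output members above, since Ciart, Bhlhe41 and Nr1d1 were below the floor, and had the same median of -0.67. The 5 measured genes of the opposite phase, driven through REV-ERB and ROR elements, had a median of 0.23, with Arntl, Npas2 and Cry1 higher in MatDp(dist2) and Clock and Nfil3 higher in PatDp(dist2). With plain _at probe sets alone the median of the opposite phase turned to -0.37, below the -0.25 of the E-box and D-box phase, and a floor lowered to the 30th percentile moved the latter median to -0.18. The listed genes that modify or bind clock proteins, among them kinases, ubiquitin ligase parts, Timeless, Nono and Sirt1, had 0 of 10 measured genes past 2-fold. Over all genes 3.73% passed towards MatDp(dist2) and 3.52% towards PatDp(dist2), and 10 genes are too few to read against this. At 1.5-fold 2 were higher in MatDp(dist2) and 0 in PatDp(dist2), against 10.9% and 11.2%. The median of the 10 genes was -0.08. The sign of this median turned with quantile normalization (0.08), loess (0.01), the mean over probe sets (0.10) and plain _at probe sets (0.14). Btrc, which helps degrade Per proteins, had signals of 462 and 255, and Csnk1e, a kinase of Per proteins, 3387 and 1894. Csnk2a1, a Chr 2 gene, had 1318 and 1577.

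Output genes that cycle in many adult tissues were mostly higher in PatDp(dist2), as Nr1d2, Per2 and Per3 were. This held for 8 of 9 measured genes, against 49.9% of all genes, a share not matched for brightness, and their median was -0.45. Of the 8, Pdxk and Wee1 lay near equality, at 1.02-fold and 1.07-fold. Tsc22d3, also among the 8, is counted again with the glucocorticoid genes below. Past 2-fold were 2 of the 9, too few to read against the 3.52% of all genes. Nampt, which makes NAD, had signals of 953.5 for MatDp(dist2) and 2520.4 for PatDp(dist2). Alas1, the first enzyme of heme synthesis, had 1643 and 3753, though its probe set 1455282_x_at gave 330.4 and 297. Usp2, a ubiquitin protease, had 1249 and 2131. Alas1 and Usp2 lie on Chr 9. Fat markers had a median of -1.69 and muscle markers one of -0.57, in the same direction as these output genes, and neuron markers a median of 1.14 in the other.

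**Figure D4:**
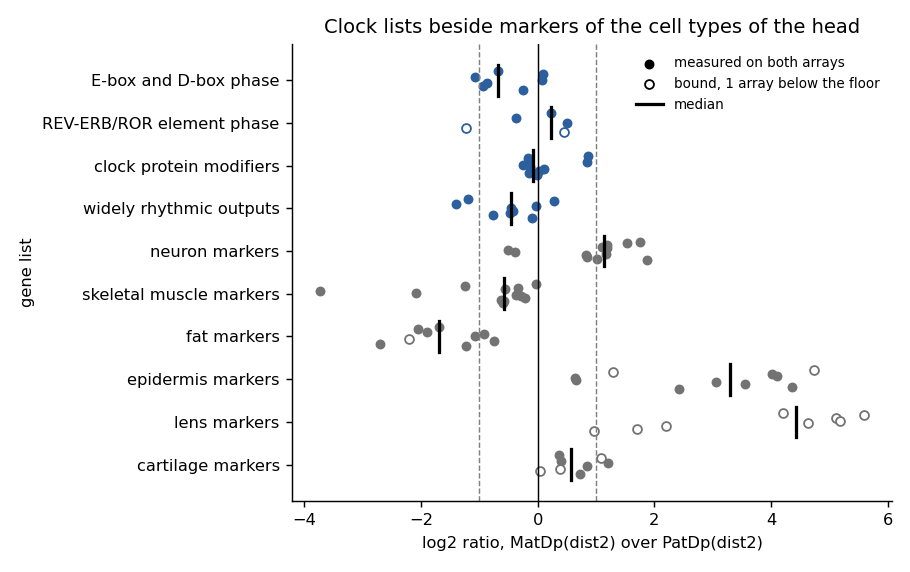
Log2 ratio of MatDp(dist2) over PatDp(dist2) for each measured gene of the clock lists (blue) and of the cell type marker lists (grey), with filled circles for genes measured on both arrays, open circles for bounds and a black bar at each list's median. The clock lists spread over a narrower range than the fat, epidermis and lens markers, whose medians were -1.69, 3.30 and 4.42.

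**Figure D5:**
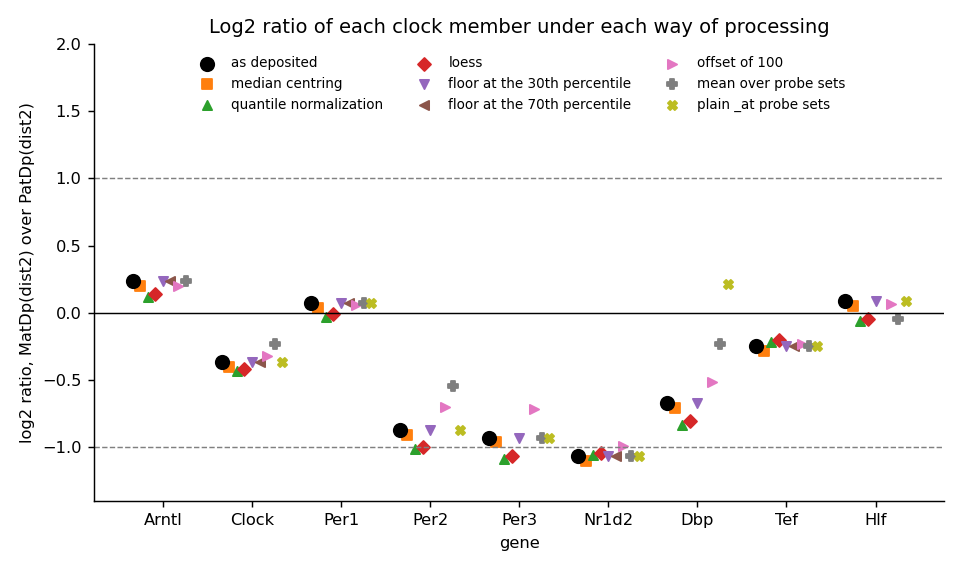
Log2 ratio of MatDp(dist2) over PatDp(dist2) of each measured clock member under the deposited scaling (black circles) and 8 other ways of processing, with dashed lines at a 2-fold difference. Nr1d2 stays between -1.11 and -0.99, Per1 and Hlf cross 0, and Dbp spans -0.84 to 0.21.

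The processing altered which members passed 2-fold. Quantile normalization and the loess fit, which remove a drift of the ratio with brightness, put Per2 and Per3 past 2-fold beside Nr1d2, while an offset of 100 on each signal left none. Under both fits Per1 and Hlf turned slightly below 0, and Arntl was then the only measured member with a higher signal in MatDp(dist2). The ratio drifted with brightness over all genes, from a median of 0.10 among the dimmest to -0.21 among the brightest. Nr1d2, Per3, Per2, Clock and Tef kept a lower signal in MatDp(dist2) under every setting that gave them a value.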

How the data were processed

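Signals of 1 Affymetrix array per genotype were used as deposited by the authors, as a linear intensity per probe set. Per the submitters' processing notes they came from MAS5 and GCOS, without stated versions. The mean signal after trimming 2% of probe sets from each end was 500.002 on both arrays, so they were scaled to one target. Names came from the platform annotation, updated by gene ID with RefSeq (GRCm38.p6), leaving 34945 with 1 gene symbol, and each gene was represented by its brightest probe set by mean log2 signal. The floor was the median of the arrays' 50th percentiles, 187. With 1 array below it, a bound (the higher signal divided by the floor) is printed, and with both below it no fold. Medians of lists use such bounds. Without replicates there was no test, only counts past 2-fold beside those of all genes. Precision is limited by having 1 array each. All probe sets of the members are given by value or range, and every further gene of the 4 pathway lists on the arrays is named. Of each other list described, except the marker lists, at least the 3 genes farthest from equality are named. The marker lists are given mainly by counts, summed signals or medians. Members and lists were chosen with earlier results of these data known. Alternatives were median centring, quantile and loess scaling, other floors, an offset of 100, other probe sets and other fold limits. Counting was tested on simulated data. Python 3.11.15, numpy 2.4.6, pandas 2.3.3 and statsmodels 0.14.6 were used.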

Additional observations from a re-analysis of the deposited data

How the results depend on the processing

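No paired analysis was possible because each genotype had 1 array, and for the same reason no replicate could be left out. A log2 value was taken as moved when it shifted by more than 0.42, the robust SD over genes, and a count when it differed by over 1.5 times. By these limits 137 values of the members, arms, pathway and all genes stayed and 22 moved. The limit of 0.42 is wider than the log2 ratios of Arntl, Clock, Per1, Tef and Hlf. These could change sign and still count as stayed, as Per1 and Hlf did with quantile normalization and loess. Another floor leaves the ratio of a measured member as it is, so those values could not move. The 1 member past 2-fold in the PatDp(dist2) direction, Nr1d2, became 3 members (with Per2 and Per3) with quantile normalization and 3 with the loess fit, 0 with the offset of 100, 4 at 1.5-fold and 0 at 3-fold. In the 4 pathway lists the 2 genes higher in PatDp(dist2) became 4 with quantile normalization, 4 with loess, 1 with the floor at the 70th percentile, 0 with the offset, 6 at 1.5-fold and 0 at 3-fold, and with the floor at the 30th percentile 1 gene, Rorb, was past 2-fold in the MatDp(dist2) direction. Dbp went from -0.67 to -0.23 with the mean over its probe sets and to 0.21 with plain _at probe sets, which also took the arm difference from -0.60 to 0.12, with Clock alone as activator. Over all genes the 420 higher in MatDp(dist2) became 681 with the lower floor, 169 with the higher floor, 278 with the offset, 1225 at 1.5-fold and 84 at 3-fold, and the 397 higher in PatDp(dist2) became 1258 and 93 at those limits. The offset shrinks ratios of dim genes and the floors alter which genes are counted. For other shifts the cause was not tested. Of the values of gene lists outside this set, 457 stayed and 45 moved, and no value past 2-fold changed sign. Nr1d1 lay below the floor on both arrays and has no fold.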

Other observations

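Genes that respond to glucocorticoids, a daily hormone signal that also reaches Per1, were mostly higher in PatDp(dist2) on their brightest probe sets. There 11 of 12 measured genes lay on that side, against 49.9% of all genes. Of them 1 was at least 2-fold higher, too few to read against the 3.52% of all genes, and the median log2 ratio was -0.50. Another probe set measured on both arrays read higher in MatDp(dist2) for Fkbp5 (395.7 and 294.4), Cdkn1a (358.8 and 318) and Errfi1 (333 and 282.2). Further such probe sets of Tsc22d3, Zbtb16, Klf9, Nfkbia and Glul read higher in PatDp(dist2). The brightest of all genes had a median of -0.21, and the share of 49.9% was not matched for brightness. The 1 gene past 2-fold became 0 with quantile normalization, loess or plain _at probe sets and 3 with the mean over probe sets. Fat and muscle markers had medians of -1.69 and -0.57 in the same direction, and their part was not tested. Glul, which makes glutamine, had signals of 3197 for MatDp(dist2) and 6508 for PatDp(dist2), and the metallothionein Mt1 had 2350.3 and 4635. Zbtb16, a zinc finger regulator that lies on Chr 9, had 949.6 and 1687. Per1 itself lay near equality, at 644 and 614. Immediate early genes induced through CREB and related factors had a median of -0.26, with Nr4a1 at 829 and 1641, Fos at 816 and 1148 and Ier2 at 545 and 408. Past 2-fold were 0 of 9 measured genes, or 1, higher in PatDp(dist2), with median centring. Over all genes 4.43% passed towards MatDp(dist2) and 3.47% towards PatDp(dist2), bounds included, and 9 genes are too few to read against this.

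Of 7 measured genes that follow body temperature, another cue for clocks, 1 was past 2-fold, towards MatDp(dist2). That is too few to read against the 3.73% of all genes that passed in that direction. Cirbp, a cold-induced RNA-binding protein that is reported to act on Clock transcripts, had signals of 1000.3 for MatDp(dist2) and 295 for PatDp(dist2) on its only probe set, 3.39-fold higher in the former. On the brightest probe set of each gene, Hspa1b had 1742 and 1454 and Hspa1a 417.5 and 379.9, and the median over 7 measured genes was 0.07, or 0.29 with the mean over probe sets. Other probe sets lay farther apart, with Hsp90aa1 at 5029.5 and 3182.7 on 1426645_at and Hsph1 at 578.3 and 327.5 on 1423566_a_at. Of 8 listed marker genes of retina and pineal gland, organs with strong clocks, 6 were on the arrays and 5 of them were below the floor in both heads. Otx2 was the exception, with 316 for MatDp(dist2) and 26, under the floor, for PatDp(dist2).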
